A study of Rattus norvegicus with 3 samples.

Results

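Microtubule-actin crosslinking factor 1 (Macf1), talin 2 (Tln2), microtubule-associated scaffold protein 1 (Mtus1), doublecortin-like kinase 1 (Dclk1) and sperm-associated antigen 5 (Spag5, also called astrin) are proteins that tie cytoskeletal filaments to one another, to the cell surface or to the spindle. These 5 genes, of 16516 in the authors' deposited comparison table, were chosen because the mix of their transcripts differed between stages of enamel formation in the authors' deposited isoform tables. Those tables hold 19 of their transcripts among 9949, in 4050 or 4051 genes according to the pair of stages. The choice used the transcript values of all 3 pairs of stages, so every value and false discovery rate (FDR, the authors' p-value adjusted over all genes or transcripts of a pair) given for the 5 genes is a description and not a test of them.

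The 3 groups were dissected from enamel organs of 5 rats of the Wistar Hannover strain: maturation-stage ameloblasts, secretory-stage ameloblasts and cells of the cervical loop, the growing end of the incisor epithelium. No genotype or treatment is named in the labels, and the rats' age is not given there. The cells were not sorted, as far as the labels say, and 1 cervical loop sample was excluded for low RNA integrity. Each group is represented by 1 least-squares mean per gene, called the authors' mean here, and by 1 per transcript in each of the 2 isoform tables that hold the stage, with no spread beside it. These transcript means can differ between tables, so levels over 3 stages are from the table of secretory against cervical loop cells, with maturation, whose means were equal in both of its tables, added, and each pair is given from its own table. The deposited totals were multiples of 3.99, 3.99 and 5.01 of the cervical loop, secretory and maturation means, which comes to 13 libraries. The labels would give 14 if every rat gave all 3 stages except for the excluded sample, so 1 library is unaccounted for. The unit of the means is not stated, so no level is compared between genes, and a share is a share of the summed transcript means and not of molecules.

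Linker proteins tie the filament systems of a cell to one another. Spectraplakins such as Macf1 hold actin and growing microtubules at the same time, and in mouse skin cells Macf1 guides microtubules to focal adhesions. Talins connect the tails of integrins to actin and recruit vinculin when stretched, so that a cell can pull on its matrix. Ameloblasts are tall polarised cells that carry secretory vesicles along microtubules while they lay down enamel, and later switch between ruffled and smooth surfaces as the enamel hardens.

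The labels of the 3 stages were first set beside genes known to mark them. The summed authors' means of 4 enamel matrix and protease genes of the secretory stage (a list with Ambn, Amelx, Enam and Mmp20) were 2920 in the cervical loop, 112877 in secretory cells and 5621 in maturation cells. The sums of 5 maturation genes, among them Odam, Amtn, Klk4 and Wdr72, were 83.8, 554 and 5570 in the same order. The 4 genes of dividing cells summed to 545, 71.5 and 66.2. The 4 epithelium genes summed to 925, 1393 and 2941, but did not all move one way. In maturation against cervical loop cells, 2 of them were higher and 1 lower in the authors' deposited table. Mesenchyme genes, at 10230, 10828 and 14715 for 10 genes, and endothelial genes, at 182, 243 and 338 for 9 genes, were present at every stage. In such bulk samples, fewer cells of a type and less RNA per cell cannot be told apart.

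The pairs of stages in which the transcript mix passed were not the same for all 5 genes. Per the authors' deposited isoform tables, 3 of the 5 genes passed the FDR threshold of 0.05 for transcript make-up in secretory cells against cervical loop cells, when 1.19% of all genes did. In maturation against secretory cells 4 passed, with 1.80% of all genes, and in maturation against cervical loop cells all 5 passed, with 2.79% of all genes. Nothing is read from these counts, since the genes were chosen by them. The sizes of the changes are given as the percentage of a gene's signal that would have to move from some transcripts to others to turn one stage's mix into the other's, called the share moved. Its median over all genes was 3.95% in secretory against cervical loop cells, 3.93% in maturation against secretory cells and 3.91% in maturation against cervical loop cells. The share moved was not tested, and an FDR given beside it is that of the authors' make-up test. In secretory against cervical loop cells, Macf1 and Mtus1 both had a share moved of 11.2%. Their make-up FDRs were 0.00841 and 0.824 in the authors' deposited table.

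**Figure D1:**
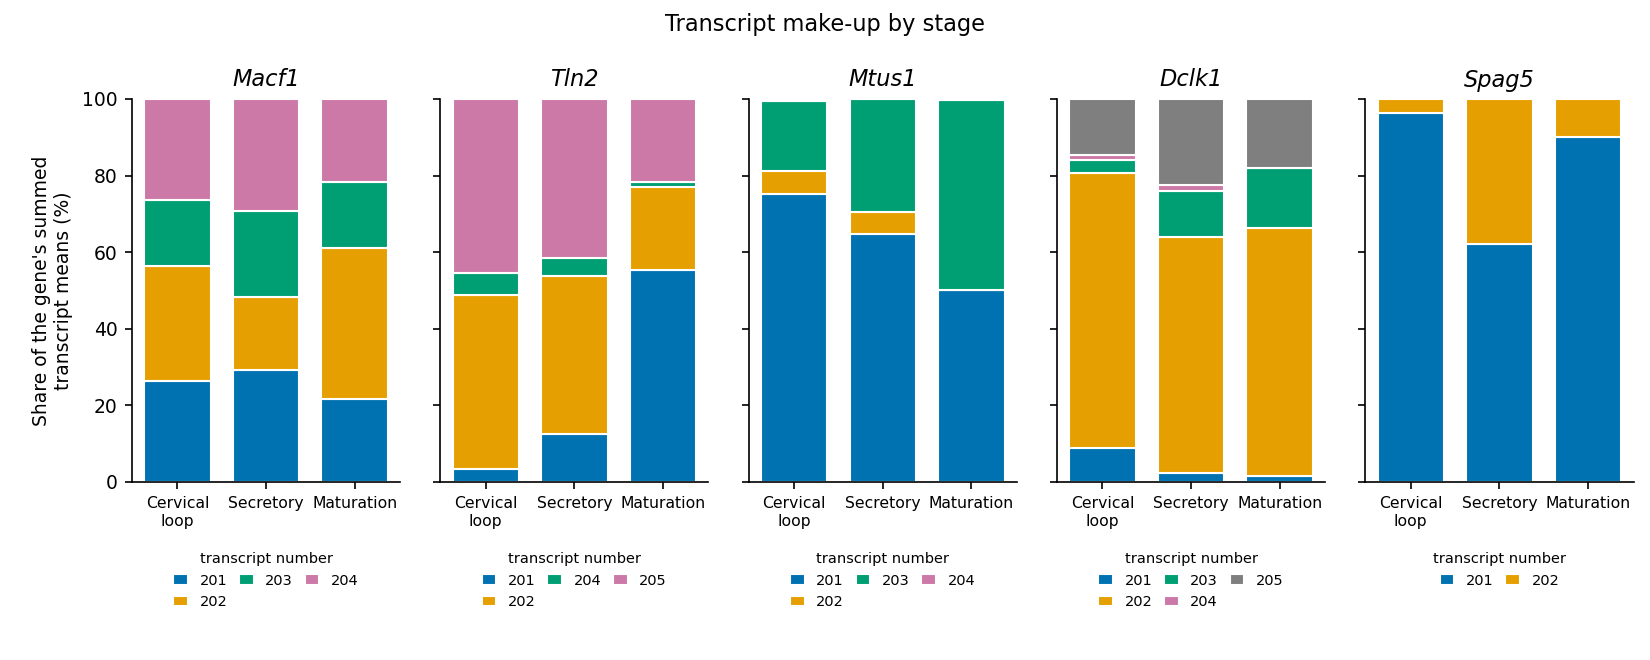
Share of each gene's summed transcript means (y axis, percent) taken by each transcript in cervical loop (C), secretory (S) and maturation (M) cells, 1 authors' mean per stage. Tln2-201 takes 3.32% of the signal in the cervical loop, 12.4% in secretory and 55.3% in maturation cells, while Spag5-202 is widest in secretory cells at 37.9%.

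Tln2 showed the largest move. Its transcript Tln2-201 had an authors' mean of 2.02 in the cervical loop, 3.66 in secretory cells and 43.9 in maturation cells, and maturation stood far above the other stages. Against secretory cells, Tln2-201 in maturation was 11.2-fold higher (43.9 against 3.91, FDR = 3.51e-07 in the authors' deposited table). Against the cervical loop it was 22.5-fold higher (43.9 against 1.95, FDR = 6.46e-14 in the authors' deposited table). With 1 added to both means, the log2 ratios of Tln2-201 were 3.19 and 3.93 in these pairs, against 3.49 and 4.49 without it.

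The remaining Tln2 transcripts took a smaller share in maturation cells. Tln2-202 and Tln2-205 carried the same means in every table and so count as 1 signal that cannot be divided between them. Together they took 43.3% of the signal in maturation cells, against 81.7% in secretory cells, and 43.3% against 91.2% in the cervical loop. Each had a mean of 17.2 in maturation cells against 12.4 in secretory cells, which did not pass (FDR = 0.473 in the authors' deposited table). Each had a mean of 17.2 in maturation cells and 27.6 in the cervical loop, 1.6-fold lower in maturation (FDR = 0.0253 in the authors' deposited table). Tln2-204 had a mean of 1.13 in maturation cells against 3.4 in the cervical loop, 3.01-fold lower (FDR = 7.57e-06 in the authors' deposited table).

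For Tln2 as a whole the share moved was 52% in maturation against cervical loop cells, larger than in 99.8% of 4050 genes, and its make-up p-value was the smallest of all genes in that pair (FDR = 1.45e-12 in the authors' deposited table). It was 42.4% in maturation against secretory cells (FDR = 9.44e-04) and 9.1% in secretory against cervical loop cells (FDR = 0.218), both per the authors' deposited tables. The gene's total followed another course, with authors' means of 61.5 in the cervical loop, 29.5 in secretory cells and 78.6 in maturation cells. Per the authors' deposited table it was 2.09-fold lower in secretory than cervical loop cells (FDR = 9.18e-04), 2.67-fold higher in maturation than secretory cells (FDR = 3.05e-04) and 1.28-fold higher in maturation than cervical loop cells (FDR = 0.0231). Between maturation and cervical loop cells the total thus differed far less than Tln2-201 did.

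Muscle, which is known to use Tln2, was looked for with 10 muscle genes, of which 7 were measured. Their summed means were 124 in maturation cells, against 7.74 in secretory cells and 4.66 in the cervical loop, and 0 of the 7 passed the FDR threshold in any pair in the authors' deposited table. Myh4, a fast-fibre myosin, had a mean of 52.8 in maturation cells against 1.96 in secretory cells (FDR = 0.491) and 0.24 in the cervical loop (FDR = 0.277), per the authors' deposited table. Acta1, skeletal muscle actin, stood at 23.8, against 2.16 in secretory and 0.495 in cervical loop cells. The part of muscle RNA in the Tln2 values was not tested.

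**Figure D2:**
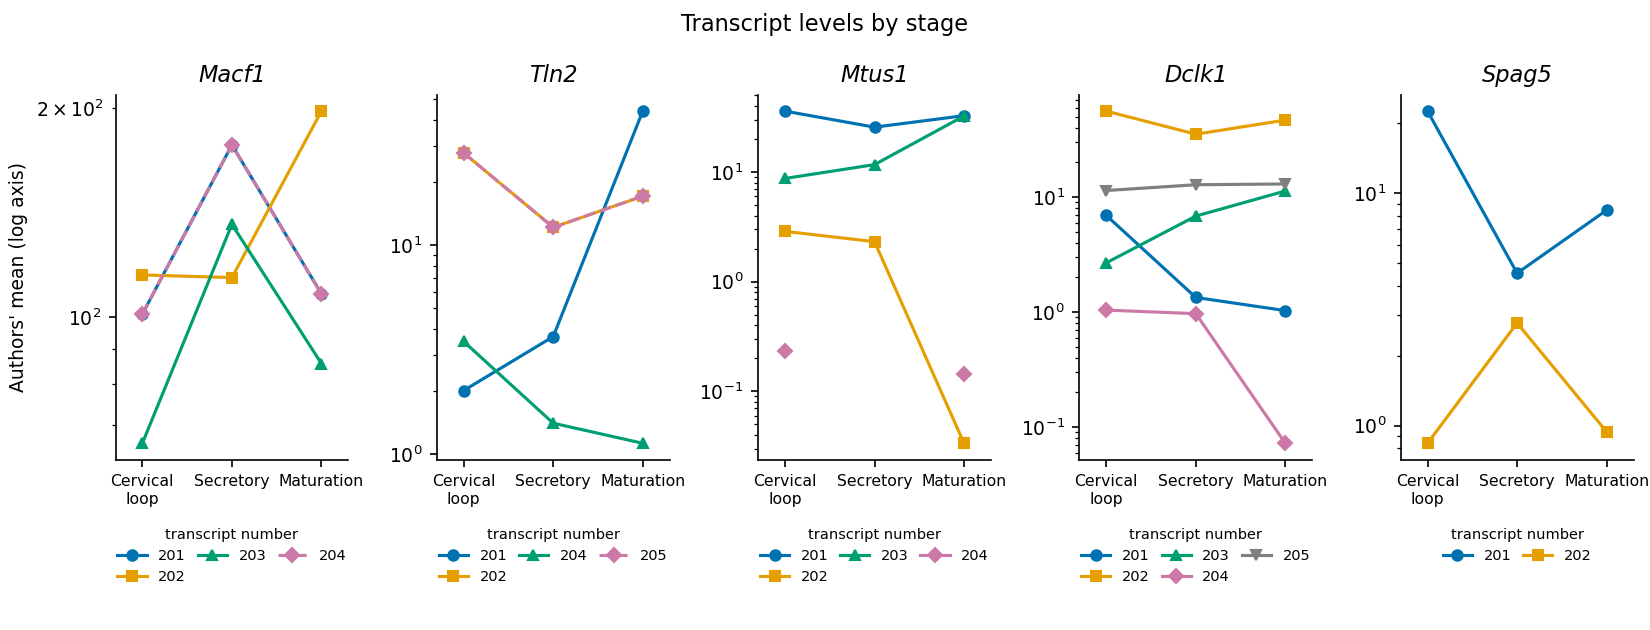
Authors' mean of every transcript (y axis, log10 scale, unit not stated) in cervical loop, secretory and maturation cells, in 1 panel per gene, with the near-equal second member of a transcript pair drawn dashed and values below 0 not drawn. Tln2-201 climbs to 43.9 in maturation cells, and Macf1-202 is near level at 115 and 114 in the first 2 stages and reaches 198 in maturation.

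In Macf1 the mix moved one way at the first step and the other way at the second. Macf1-202 had means of 115 in the cervical loop, 114 in secretory cells and 198 in maturation cells. Macf1-203 had 65.8, 136 and 85.7 over the same stages. Macf1-201 and Macf1-204, whose means lay within 1% of each other, had 101, 177 and 108 each. Macf1-202 was therefore highest in maturation and the other 3 in secretory cells.

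In secretory against cervical loop cells, Macf1-203 was 2.07-fold higher (136 against 65.8, FDR = 3.89e-05 in the authors' deposited table) and Macf1-201 was 1.75-fold higher (177 against 101, FDR = 2.36e-04 in the authors' deposited table). Macf1-202 took 18.9% of the signal in secretory cells against 30.0% in the cervical loop, although its own mean did not pass (114 against 115, FDR = 0.825 in the authors' deposited table). The summed mean of the other 3 transcripts was higher by 222, while that of Macf1-202 differed by -1.

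In maturation against secretory cells each of these directions was the opposite one. Macf1-202 was 1.75-fold higher (198 against 113, FDR = 1.53e-06 in the authors' deposited table) and took 39.6% of the signal against 18.8%. The other 3 summed to 302 in maturation against 487 in secretory cells, with Macf1-203 1.58-fold lower (85.7 against 135, FDR = 7.73e-05) and Macf1-201 1.63-fold lower (108 against 176, FDR = 2.09e-05), both in the authors' deposited table. The share moved was 20.8%, and the make-up p-value of Macf1 was the smallest of all genes in this pair (FDR = 9.50e-08 in the authors' deposited table). Against the cervical loop, maturation cells kept a Macf1-202 mean 1.58-fold higher (198 against 125, FDR = 2.43e-05 in the authors' deposited table), while the other 3 together stood at 302 against 295.

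The Macf1 total passed in only 1 of the 3 pairs. Its authors' means were 408 in the cervical loop, 599.6 in secretory cells and 494 in maturation cells. The authors' deposited table gives 1.47-fold higher in secretory than cervical loop cells (FDR = 0.00894), but 1.21-fold lower in maturation than secretory cells (FDR = 0.0715) and 1.21-fold higher in maturation than cervical loop cells (FDR = 0.051), neither of which passed.

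Mtus1, a microtubule-binding protein known as a partner of the angiotensin receptor Agtr2, had one form at the floor in maturation cells and another that rose there. Mtus1-202 had a mean of 0.0336 in maturation cells, against 2.45 in secretory cells (FDR = 1.48e-09 in the authors' deposited table) and 2.87 in the cervical loop (FDR = 7.56e-07 in the authors' deposited table). Means up to 0.1 count as a floor here, against which no fold is given. Mtus1-203 had a mean of 32.5 in maturation cells against 11.8 in secretory cells, 2.75-fold higher (FDR = 0.0435 by the authors' deposited table), and was 3.72-fold higher than in the cervical loop (32.5 against 8.74, FDR = 0.0467 in the authors' deposited table). Mtus1-201 did not pass in any pair, with means of 36 in the cervical loop, 25.7 in secretory and 32.7 in maturation cells, and Mtus1-204 had a mean of 0.145 in maturation cells and one below 0, at -0.0808, in secretory cells.

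Mtus1-201 took 50.0% of the signal in maturation cells against 64.3% in secretory cells, and Mtus1-203 took 49.7% against 29.4%, so that the mix was near even in maturation. Mtus1-202 took 0.0514% in maturation cells against 6.11% in secretory cells. Which of these shifts the make-up FDR rests on was not tested. The share moved was 20.4% in that pair (FDR = 1.65e-07, the second smallest p-value of all genes), 31.4% in maturation against cervical loop cells (FDR = 6.88e-05) and 11.2% in secretory against cervical loop cells (FDR = 0.824), per the authors' deposited tables. The gene's total passed in all 3 pairs of the authors' deposited table: 1.24-fold lower in secretory than cervical loop cells (38.9 against 48.3, FDR = 0.00795), 1.66-fold higher in maturation than secretory cells (64.7 against 38.9, FDR = 3.21e-04) and 1.34-fold higher in maturation than cervical loop cells (FDR = 9.11e-04).

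Dclk1 joins doublecortin domains, which bind microtubules, to a kinase domain, and in mouse brain it is known to be made in long and short forms. Which of the numbered transcripts would give such forms is not known here. The mix of Dclk1 passed in both pairs that include the cervical loop. Dclk1-201 had means of 6.93 in the cervical loop, 1.34 in secretory cells and 1.03 in maturation cells. It was 5.17-fold lower in secretory than cervical loop cells (FDR = 4.72e-05 in the authors' deposited table) and 6.28-fold lower in maturation than cervical loop cells (1.03 against 6.47, FDR = 0.00113 in the authors' deposited table). With 1 added to both means, the log2 ratios of Dclk1-201 were -1.76 and -1.88 in these pairs, against -2.37 and -2.65 without it.

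Dclk1-203 went the other way, with a mean of 11.3 in maturation cells against 2.23 in the cervical loop, 5.07-fold higher (FDR = 0.0012 by the authors' deposited table). Its cervical loop mean was 2.68 in the table of secretory against cervical loop cells. The form with the highest means, Dclk1-202, had means of 55.9 in the cervical loop, 35.2 in secretory cells and 46.7 in maturation cells, and neither it nor Dclk1-205, at 11.4, 12.8 and 13, passed in any pair. The share moved was 16.7% in secretory against cervical loop cells (FDR = 7.39e-04), 5.65% in maturation against secretory cells (FDR = 0.754) and 16.2% in maturation against cervical loop cells (FDR = 6.26e-05), per the authors' deposited tables. The total did not pass in any pair of the authors' deposited table, with means of 77.6 in the cervical loop, 59.2 in secretory cells and 71.3 in maturation cells and FDRs of 0.206, 0.24 and 0.814 for secretory against cervical loop, maturation against secretory and maturation against cervical loop cells.

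For low transcripts the ratio of means and the authors' FDR can measure different things. Dclk1-204 passed in secretory against cervical loop cells with nearly equal means (0.969 against 1.04, FDR = 1.76e-04 in the authors' deposited table), and Dclk1-201 passed in maturation against secretory cells with 1.03 against 0.933 (FDR = 0.0356 in the authors' deposited table). The secretory mean of Dclk1-201 also differed by 30.4% between the authors' 2 tables that hold it. The means of Dclk1-204 differed by 42.2% in secretory and 43.8% in cervical loop cells. No direction is therefore read from these calls, which still enter the counts of transcripts higher and lower given further on. As Dclk1 is known from neurons, the summed means of 9 nerve and Schwann genes are set beside it, at 84.8 in maturation cells, against 141 in secretory cells and 207 in the cervical loop. Of the defining ones, Sox10 was at 0.254, 0.239 and 0.694 and the neurofilament gene Nefl at 0.108, 0.105 and 0.186 in cervical loop, secretory and maturation cells, and their part in the Dclk1 values was not tested.

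Spag5 sits on the spindle and at kinetochores of dividing cells, together with its partner Knstrn (kinastrin). It had only 2 transcripts, and their order came nearest to even in secretory cells. Spag5-201 had means of 22.5 in the cervical loop, 4.52 in secretory cells and 8.44 in maturation cells. Spag5-202 had 0.839, 2.76 and 0.94 in the same stages, so it was highest where the other was lowest.

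Spag5-201 was 4.98-fold lower in secretory than cervical loop cells (FDR = 5.83e-04 in the authors' deposited table) and 1.87-fold higher in maturation than secretory cells (8.44 against 4.52, FDR = 0.0412 in the authors' deposited table). Spag5-202 was 3.29-fold higher in secretory than cervical loop cells (FDR = 0.00294 in the authors' deposited table) and 2.95-fold lower in maturation than secretory cells (0.94 against 2.77, FDR = 0.0025 in the authors' deposited table). It took 37.9% of the signal in secretory cells against 3.59% in the cervical loop, and Spag5-201 took 90.0% in maturation cells against 62% in secretory cells. The share moved was 34.3%, 28% and 6.38% in secretory against cervical loop (FDR = 0.00209), maturation against secretory (FDR = 0.00793) and maturation against cervical loop cells (FDR = 0.0331), per the authors' deposited tables. All of these means are low, and with 1 added to both means the log2 ratio of Spag5-202 in secretory over cervical loop cells was 1.03 against 1.72 without it, and in maturation over secretory cells -0.96 against -1.56. The share of Spag5-201 differed by -9.75 points in maturation against cervical loop cells with 1 added, against -6.38 points without it.

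The Spag5 total was 3.25-fold lower in secretory than cervical loop cells (7.25 against 23.6, FDR = 0.00111 in the authors' deposited table) and 2.54-fold lower in maturation than cervical loop cells (9.28 against 23.6, FDR = 0.00103 in the authors' deposited table). The summed means of Mki67, Top2a, Ccnb1 and Cdk1, genes of dividing cells, were 71.5 in secretory cells and 66.2 in maturation cells, against 545 in the cervical loop. All 4 were lower at both later stages in the authors' deposited table, and their part in the Spag5 values was not tested. Knstrn was lower too, with a mean of 5.55 in secretory cells against 16.8 in the cervical loop, 3.03-fold lower (FDR = 5.14e-04 in the authors' deposited table). It was a further 3.28-fold lower in maturation than secretory cells (1.69 against 5.55, FDR = 2.78e-04 in the authors' deposited table). The Spag5 total did not share this second fall, at 9.28 in maturation against 7.25 in secretory cells. That difference, 1.28-fold higher, did not pass (FDR = 0.151 in the authors' deposited table).

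As Spag5 and Knstrn were both lower in secretory than cervical loop cells, the 250 bases before their start sites are shown, from RefSeq on GRCr8 (the deposited tables name rn6). Many genes of late cell division carry a CHR element, searched as TTTGAA, and CCAAT boxes, searched as CCAAT, each on both strands, and the letters found are in capitals below. The regions are chr10:63696586-63696835 and chr3:126254446-126254695, both on the plus strand and written 5' to 3'.
Spag5: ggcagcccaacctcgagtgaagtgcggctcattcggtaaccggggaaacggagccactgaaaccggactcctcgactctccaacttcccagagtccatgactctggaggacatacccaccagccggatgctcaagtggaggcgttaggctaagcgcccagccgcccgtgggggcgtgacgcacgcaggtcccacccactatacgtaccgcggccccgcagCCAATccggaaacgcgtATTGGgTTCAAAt
Knstrn: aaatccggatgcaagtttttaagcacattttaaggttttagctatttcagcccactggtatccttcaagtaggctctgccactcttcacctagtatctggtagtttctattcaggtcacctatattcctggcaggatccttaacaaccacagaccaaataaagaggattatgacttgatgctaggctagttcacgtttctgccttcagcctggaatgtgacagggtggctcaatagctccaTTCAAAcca
Spag5 held TTCAAA, the CHR letters on the other strand, starting at -7 from the start site, with CCAAT starting at -30 and ATTGG at -13. Knstrn held TTCAAA at -9 and no CCAAT. Among 33465 rat promoters 16.2% held the CHR letters, 34% CCAAT and 5.87% both, and among the 23 promoters matched for Spag5 and its spindle list these were 8, 16 and 7 genes. Macf1, Tln2 and Dclk1 held neither motif in the window searched for each gene. Any other start sites of these genes were not searched, and no window was available for Mtus1. A match describes these letters and is not a shown binding site.

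The total of each gene and its transcript mix were set side by side over all 5. Per the authors' deposited table, 4 of the 5 totals passed in secretory against cervical loop cells, 1 higher and 3 lower, when 41.8% of all genes passed (16.5% higher and 25.2% lower). In maturation against secretory cells 2 passed, both higher, with 42.9% of all genes (21.8% higher and 21.1% lower). In maturation against cervical loop cells 3 passed, 2 higher and 1 lower, with 57.8% of all genes (24.1% higher and 33.7% lower). A make-up call without a call on the total was seen for Dclk1 in secretory against cervical loop cells, for Macf1 and Spag5 in maturation against secretory cells and for Macf1 and Dclk1 in maturation against cervical loop cells. Over all genes with a make-up call, 29.2%, 35.6% and 27.4% lacked a call on the total in these 3 pairs.

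**Figure D3:**
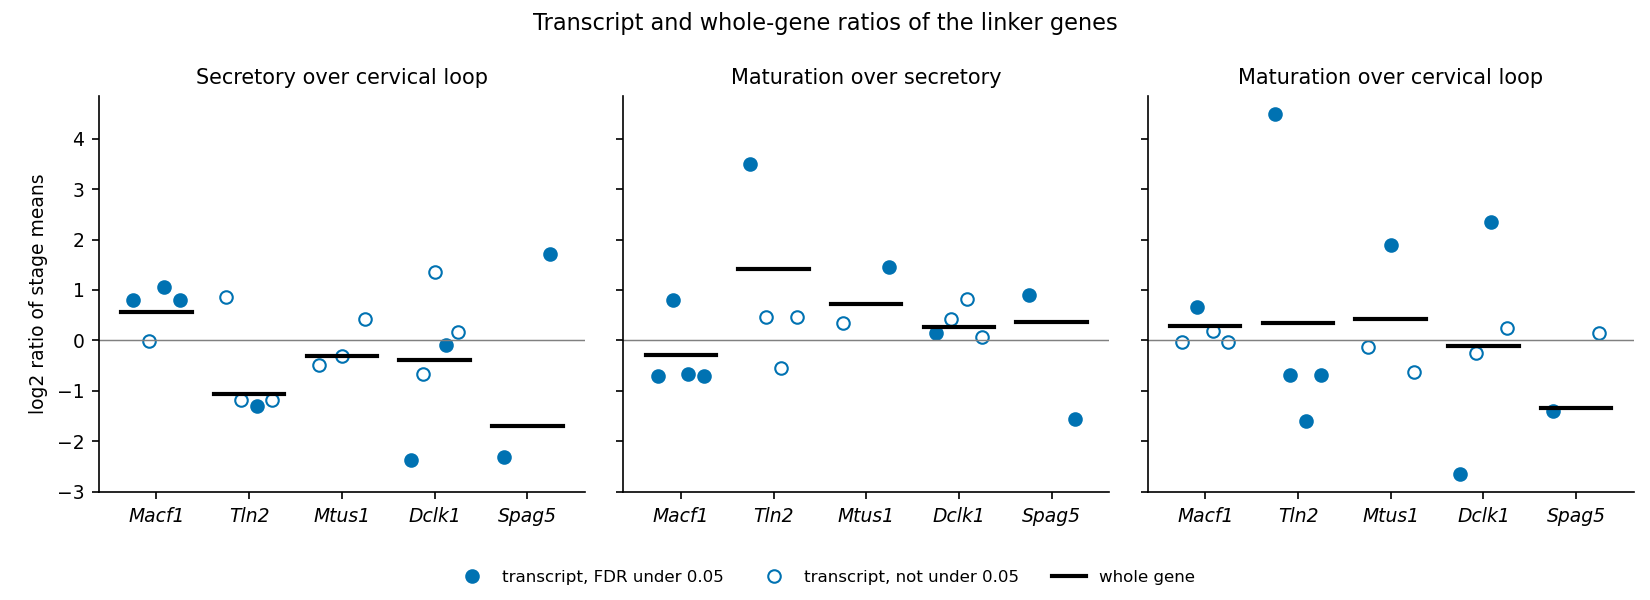
Log2 ratio of stage means (y axis, later over earlier stage) for each transcript (points) and for the whole gene (bars), filled where the authors' FDR was under 0.05, with transcripts at or under the 0.1 floor left out. Tln2-201 lies at 3.49 above secretory and 4.49 above cervical loop cells, and the Macf1-202 point at 0.81 lies above its gene's bar in maturation over secretory cells while the other 3 lie below it.

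Of the 19 transcripts, 4 were higher and 4 lower in secretory against cervical loop cells in the authors' deposited table, when 16.0% of all transcripts passed (7.63% higher and 8.41% lower). In maturation against secretory cells 5 were higher and 5 lower, with 17.0% of all transcripts passing (7.87% higher and 9.11% lower), and in maturation against cervical loop cells 4 were higher and 7 lower, with 25.1% (10.7% higher and 14.4% lower). These counts take both members of the near-equal pairs, Macf1-201 with Macf1-204 and Tln2-202 with Tln2-205, as separate transcripts. The Macf1 pair passed together in the first 2 pairs of stages and the Tln2 pair in the last.

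Partner genes from lists of each member's pathway were then counted, without the 5 genes themselves. The lists were chosen with results of these data known, and their counts describe the authors' deposited comparison table. The median log2 ratio of all genes was -0.14 in secretory over cervical loop cells, 0.00 in maturation over secretory cells and -0.12 in maturation over cervical loop cells. Over all 94 partner genes measured, 27 rose and 39 fell in secretory against cervical loop cells, 19 rose and 27 fell in maturation against secretory cells, and 24 rose and 46 fell in maturation against cervical loop cells, where 41.8%, 42.9% and 57.8% of all genes passed in these pairs. Of all genes, 16.5%, 21.8% and 24.1% were higher and 25.2%, 21.1% and 33.7% lower. Among the partner genes that fell, 23, 3 and 24 were from the spindle list, in which 0 rose. In the pairs that include the cervical loop, the pooled counts therefore do not describe the other lists.

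Of the plakin family, large linkers to which Macf1 belongs, 5 genes were measured. Dst (dystonin), its closest relative, had a mean of 1442 in secretory cells against 368 in the cervical loop, 3.92-fold higher (FDR = 0.0011 by the authors' deposited table), and 499 in maturation cells, 2.89-fold lower than in secretory cells (FDR = 0.00163 in the authors' deposited table). Dsp (desmoplakin), which anchors keratin to desmosomes, was 4.72-fold higher in maturation than secretory cells (689 against 146, FDR = 6.05e-04 in the authors' deposited table). Evpl (envoplakin) was 2.39-fold higher in secretory than cervical loop cells (25.5 against 10.7) and Ppl (periplakin) 1.81-fold higher in maturation than cervical loop cells (20.4 against 11.2), both passing in the authors' deposited table. The median log2 ratios of the 5 were 0.10, 0.25 and 0.44 in secretory over cervical loop, maturation over secretory and maturation over cervical loop cells, with 2 higher and 1 lower, 2 higher and 1 lower, and 3 higher and 0 lower.

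The talin and integrin list held 26 measured genes. Tln1, the talin most cells use, was level, at 199.6 in the cervical loop, 199.9 in secretory and 197 in maturation cells, and did not pass in any pair of the authors' deposited table. Parvb, a parvin that links integrins to actin, had a mean of 444 in secretory cells against 66.8 in the cervical loop, 6.65-fold higher (FDR = 4.24e-04 by the authors' deposited table), and 119 in maturation cells, 3.73-fold lower than in secretory cells (FDR = 5.50e-04 in the authors' deposited table). Itgb6, an epithelial integrin subunit, was 6.33-fold higher in secretory than cervical loop cells (212 against 33.5, FDR = 0.00104 in the authors' deposited table). Vcl (vinculin), which binds stretched talin, was 1.74-fold lower in maturation than secretory cells (83.7 against 146, FDR = 9.45e-04 in the authors' deposited table), and against the cervical loop Itgb1 was 1.65-fold higher (491 against 298) and Parva 1.54-fold lower (58.9 against 90.8) in maturation, both passing there. In all 9 rose and 3 fell, 8 rose and 7 fell, and 8 rose and 4 fell in the 3 pairs, with median log2 ratios of -0.08, 0.07 and 0.20.

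Of 21 genes for proteins at microtubule ends, 12 rose and 5 fell in secretory against cervical loop cells, 4 rose and 11 fell in maturation against secretory cells, and 8 rose and 8 fell in maturation against cervical loop cells, with median log2 ratios of 0.37, -0.34 and 0.10. Clip2, a plus-end protein, was 5.64-fold lower in maturation than secretory cells (25.3 against 143, FDR = 2.79e-04 in the authors' deposited table), and Gas2l3 was 3.38-fold lower (7.89 against 26.7). Clip1, its relative, was 2.55-fold higher in maturation than cervical loop cells (69.8 against 27.4, FDR = 1.21e-04 in the authors' deposited table). Clip4 was 3.64-fold higher (10.9 against 3.01) and Tacc3, a spindle protein, 5.23-fold lower (3.65 against 19.1) in secretory than cervical loop cells, both passing in the authors' deposited table.

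In the Mtus1 family and angiotensin receptor list, 5 genes were measured, of which 1 rose and 1 fell, 1 rose and 2 fell, and 0 rose and 4 fell in the 3 pairs. Mtus2 was 5.2-fold higher in secretory than cervical loop cells (2.41 against 0.464, FDR = 0.00621 in the authors' deposited table) and at the floor, at 0.0819, in maturation cells. Agtr2, the receptor Mtus1 is known to bind, was also at the floor in maturation, at 0.075, against 0.803 in the cervical loop (FDR = 3.63e-04 in the authors' deposited table). Kif2c, a kinesin that takes microtubules apart, was 11.2-fold lower in secretory than cervical loop cells (1.88 against 21.1, FDR = 3.57e-04 in the authors' deposited table). The median log2 ratios of the list were -0.17, -0.09 and -2.50.

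Among 13 doublecortin-family and structural microtubule proteins, 3 rose and 6 fell, 4 rose and 3 fell, and 5 rose and 6 fell, with medians of -0.31, -0.11 and 0.04. Dclk2, the closest relative of Dclk1, rose at each step: 2.21-fold in secretory against cervical loop cells (8.85 against 4.01, FDR = 3.83e-04 in the authors' deposited table), and 1.41-fold in maturation against secretory cells (12.5 against 8.85, FDR = 6.05e-04 in the authors' deposited table). Its relatives Dclk3 (0.331 against 2.81, FDR = 0.00152) and Dcx (0.231 against 1.4, FDR = 0.00702) were lower in secretory than cervical loop cells, per the authors' deposited table. Neither Dclk3 nor Dcx passed in maturation against secretory cells. Mapt (tau) was 4.95-fold higher in secretory than cervical loop cells (3.73 against 0.753), and Map7 was 4.38-fold higher in maturation than secretory cells (21.6 against 4.93), both passing in the authors' deposited table. Stmn1, which destabilises microtubules, was 10.8-fold lower in maturation than cervical loop cells (13 against 140.3, FDR = 8.06e-05 in the authors' deposited table).

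The spindle list moved in one direction. Of 24 genes measured, 0 rose and 23 fell in secretory against cervical loop cells, 0 rose and 3 fell in maturation against secretory cells, and 0 rose and 24 fell in maturation against cervical loop cells, with median log2 ratios of -2.72, -0.17 and -2.91. Cenpf, a kinetochore protein, was 10.1-fold lower in secretory than cervical loop cells at a mean of 9.92 (FDR = 4.24e-04 in the authors' deposited table). Tpx2 was 7.95-fold lower in secretory than cervical loop cells (6.65 against 52.8), and Numa1, the one gene that did not pass in that pair, stood at 121 against 116 and was 1.36-fold lower in maturation than secretory cells (89.1 against 121, FDR = 0.001 in the authors' deposited table).

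**Figure D4:**
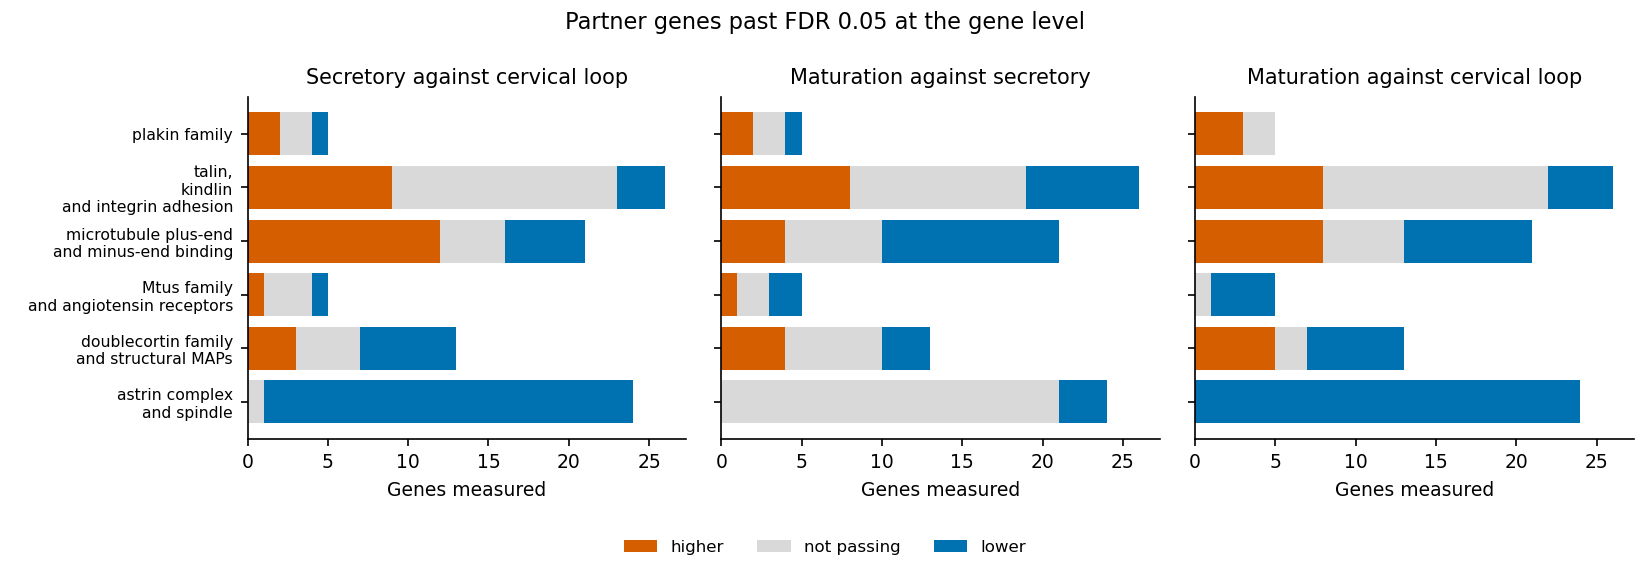
Number of genes (x axis) of each partner list that were higher, lower or did not pass in each pair of stages, by the authors' FDR under 0.05, without the 5 linker genes. The spindle list shows 23 of 24 genes lower in secretory against cervical loop cells and the microtubule-end list 12 of 21 higher.

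The gene totals were last compared with those of 12462 genes that had a mean of at least 1 in every stage, by the distance between log2 means over the 3 stages after centring each gene on its own average. Closest to Macf1 were Zbtb43, Nptn and Sept9, at distances of 0.00848, 0.00958 and 0.0155. For Tln2 they were Adamts12, Tm7sf2 and Thy1 (0.0386, 0.0406 and 0.0433). For Mtus1 they were Ifngr2, Clpb and AABR07021544.1 (0.00213, 0.0211 and 0.0241). Dclk1 lay nearest Dnajc19, LOC100909599 and Morn4 (0.00238, 0.00299 and 0.00396), and Spag5 nearest Wfdc1, Cep128 and Wee1 (0.0388, 0.0604 and 0.0616). The points are 3 stages, which many genes share, and nothing is said of common control.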

How the data were processed

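RNA was measured in maturation ameloblasts, secretory ameloblasts and cervical loop cells of Wistar Hannover rats. Per the labels, 25000000 single-end reads of 75 bases were made from every library, and the submitters' processing notes name STAR 2.5.3a, Partek and rn6. The sources used here do not give the annotation, normalisation, model terms or strand use. Transcript models behind the numbered names were not available either, so what sets the transcripts of a gene apart is not described. Per the file headers the authors deposited least-squares means of genes and transcripts, recorded here as a score because no unit is stated. They also deposited p-values and FDR, ratios (fold) of stage means and a summed signal over the libraries. Spread between libraries enters only through these p-values, and counts per gene, and so a counting interval, were not analysed here.

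With Python 3.11.15, pandas 2.3.3, numpy 2.4.6 and matplotlib 3.10.9, transcripts were matched by gene and a share was taken as a mean over the gene's summed means (values below 0 set to 0). Deposited p-values were readjusted by Benjamini-Hochberg and differed from the deposited FDR by at most 0.00347 for make-up, with 0 calls changed. Summed transcript means were within 93.1% and 103% of the gene mean. Members and lists were chosen with earlier results of these data known. Named genes were the 5 members, their closest paralogs and Knstrn, the 2 smallest p-values of each list and pair, and the 3 genes most alike. The marker genes Acta1, Sox10, Nefl, Klk4 and Top2a, and the Dclk1 relatives Dclk3 and Dcx, are outside this rule and were chosen after their values were seen. The calculations were tested on simulated data. In GRCr8, Macf1 overlaps Macf1l1, and Mtus1 overlaps Pdgfrl, whose means were 17.6, 9.3 and 10.2 in cervical loop, secretory and maturation cells, and Dclk1 overlaps LOC102552324, whose means were 0.244, 0.509 and 0.539, and reads of such overlaps may not be told apart. Genes missing from the table, such as Eppk1, Mapre2 and Dcdc2, were not analysed here.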

Additional observations from a re-analysis of the deposited data

How the results depend on the processing

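With a Bonferroni adjustment over the genes of a pair, 3 of the 5 genes (Tln2, Mtus1 and Dclk1) passed for transcript make-up in maturation against cervical loop cells, against 5 with the Benjamini-Hochberg adjustment. In that adjustment 2 genes passed in secretory against cervical loop cells and 3 in maturation against secretory cells, within 1.5 times of 3 and 4. Adjusting over the 3 pairs together, per transcript or over expressed genes alone left these counts as they were. Share differences of the leading transcripts kept their direction and moved by under 5 points in all 45 alternatives (1 added, low transcripts left out, means from the other tables), though that of Spag5-201 in maturation against cervical loop cells was -9.75 points with 1 added, against -6.38. Of 45 alternatives for the totals, which give a log2 ratio and no new p-value, 44 kept their direction and moved by under 1.5 times, and the exception was Dclk1 in maturation over cervical loop cells, whose log2 ratio was 0.00 after division by the median ratio, against -0.12. Partner counts stayed within 1.5 times in all 12 alternatives. Leaving out replicates was not possible, since the values used are means over the libraries of a stage. No paired analysis was possible because the labels tie no value to a rat. Depth per gene is not known, so the precision of means near the 0.1 floor is not known.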

Other observations

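Transcript make-up was also looked up in the 47 partner genes held in the isoform tables, a count added after the data were seen. Of them 2 passed in secretory against cervical loop cells (4.26%, against 1.19% of all genes), 2 in maturation against secretory cells (4.26%, against 1.80%) and 3 in maturation against cervical loop cells (6.38%, against 2.79%), in the authors' deposited tables. They were named after their values were seen. Plectin (Plec), a plakin that binds intermediate filaments, had Plec-206 at 20.0% of its signal in maturation cells against 11.4% in secretory cells (FDR = 0.0126), and Plec-201 at 18.1% in maturation against 26.5% in cervical loop cells (FDR = 0.00164). Map2, a structural microtubule protein, had Map2-206 at 63.4% in secretory cells against 72.8% in the cervical loop (FDR = 0.0263). Tacc2 had Tacc2-204 at 21.1% in secretory cells against 36.5% in the cervical loop (FDR = 0.00744). Kank1-202 stood at 0.173% in maturation against 3.82% in secretory cells (FDR = 0.00694), Pafah1b1-202 at 1.2% in maturation against 1.92% in cervical loop cells (FDR = 0.0137), and Map2-206 at 66.9% in maturation against 72.8% in cervical loop cells (FDR = 0.0203). The means of Kank1-202 were low, at 0.0914 in maturation cells, under the 0.1 floor, and 0.829 in secretory cells. Map2-206 had means of 1.96 in secretory and 1.61 in maturation cells, against 36.8 in the cervical loop. The Map2 total was 17.5-fold lower in secretory and 22.4-fold lower in maturation cells than in the cervical loop. All of these FDRs are from the authors' deposited tables.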
